A study of Mus musculus with 24 samples.

Results

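Type 2 alveolar epithelial cells (AEC2s) from wild-type mice were compared before and after a week of culture. The 6 libraries used were the 3 from Krt8+/+ cells on day 7 of culture and the 3 from Krt8+/+ cells on day 0, out of 24 libraries in the series. The labels give each library a batch, written as a date, and day 0 and day 7 libraries of the same batch were paired. Batches are numbered by the biological replicate number of the labels. The Krt8+/+ mice carried intact alleles of keratin 8. The cells of day 0 had not been cultured, and those of day 7 had grown in 2D on a stiff, laminin-coated substrate. The labels name no drug or injury for either group. The other 18 libraries are Krt8+/+ cells on days 1 and 3 and Krt8–/– cells on all 4 days, and they entered the model to share its estimate of the spread and, at the end, for a comparison with the Krt8–/– cells. Neither the age of the mice nor the number of mice behind a batch is given in the sources used here, so the spread between libraries is that between 3 batches.

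AEC2s make and store surfactant, the mixture of lipids and proteins that keeps alveoli open, in organelles called lamellar bodies. They are also progenitors of the flat type 1 cells (AEC1s) that carry gas exchange, and on the way they pass through a transitional state rich in keratins. When plated in 2D, AEC2s lose their surfactant genes, spread, and take on features of AEC1s and of transitional cells, which has made this culture a standard assay. The comparison asks what the net change over the whole culture was across all genes, ordered by how abundant each gene was and by what it does.

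Total counts of the 6 libraries ranged from 11699243 to 19483386. Levels are counts per unit of library size in edgeR's CPM scale, with library sizes adjusted by the trimmed mean of M values (TMM), so that a CPM is not a share of all counts. Correlations of log2 CPM were 0.954 to 0.976 between libraries of the same day and 0.741 to 0.754 between days. The libraries of day 0 therefore resembled each other far more than their own partners of day 7.

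Of 18046 genes tested, 5305 (29.4%) were higher and 5453 (30.2%) were lower on day 7 at an adjusted p below 0.05 in edgeR's quasi-likelihood test. Of these 10758 genes, 10541 moved the same way in all 3 batches. A change of more than 2-fold was called for 2553 genes upward (14.1%) and for 2830 downward (15.7%), with median log2 fold changes of 2.99 and -3.15. At the other extreme, the whole 95% confidence interval lay within 1.5-fold of no change for 1598 genes (8.86%), which are called steady below. Another 5765 genes were neither called nor shown to be steady. The nearly even split between higher and lower genes rested on TMM scaling. With plain total counts the median log2 fold change of all genes moved from 0.01 to 0.46, and 7633 genes were higher against 3801 lower, so that 66.8% of calls were upward in place of 49.3%. All fold changes below are on the TMM scale, and where a list's median is given and turned sign under total counts, that value stands beside it.

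Expression spread out from a few genes to many. The most abundant gene held 11.9%, 14.8%, and 16.0% of counts in the 3 day 0 libraries and 0.859%, 0.986%, and 0.658% in those of day 7. Counts of the 10 leading genes came to 23.98%, 28.5%, and 29.7% of a library on day 0 and 5.75%, 6.49%, and 4.70% on day 7. The groups did not overlap, and the means were 27.4% ± 3.04 and 5.65% ± 0.903 (SD, n = 3 each, exact 2-sided permutation p = 0.1, the smallest that 3 against 3 libraries can give). It took 372, 244, and 225 genes to reach 50% of the counts on day 0, against 849, 810, and 885 on day 7. The number of genes with any count had nearly the same mean, at 20780 ± 1228 on day 0 and 20788 ± 301 on day 7 (SD, n = 3 each, exact permutation p = 1). That number depends on depth, which was not equalized. The deepest library, batch 1 of day 0 (19483386 counts), had 22170 genes, against 21083 on day 7. Batches 2 and 3 had 20327 and 19844 genes on day 0 and 20481 and 20799 on day 7.

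**Figure D1:**
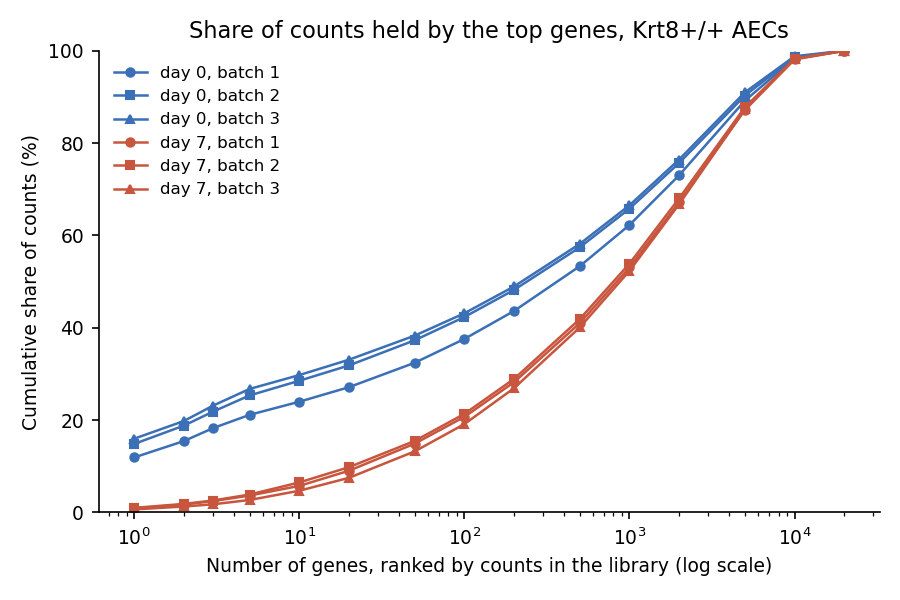
Cumulative share of counts (%) held by the most abundant genes of each Krt8+/+ library, with genes ranked within the library on a log axis. The 3 day 0 curves (blue) start between 11.9% and 16.0% and lie above the 3 day 7 curves (red), which start below 1%.

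Which genes lead the libraries also changed. By mean CPM, the first 10 genes of day 0 were Sftpc, Sftpa1, Lyz2, Lyz1, Slc34a2, Scd1, Cbr2, Sftpb, Scgb1a1, and Tmsb4x. Those of day 7 were Clu, Actb, Actg1, Ftl1, Fn1, Thbs1, Tmsb4x, Tpm1, Krt8, and Dstn. Tmsb4x, which encodes the actin monomer-binding protein thymosin beta 4, was the 1 gene on both lists. Its levels were 4079.7, 5502, and 6257 CPM on day 0 and 4796, 4906, and 3836 CPM on day 7, and the groups overlapped (log2 fold change -0.20, adjusted p = 0.33, edgeR), with the sign turning to 0.26 under total counts and to 0.03 without batch 3. The other 9 leaders of day 0 fell, by log2 fold changes from -5.67 (Lyz2) to -15.98 (Sftpa1), and the other 9 leaders of day 7 rose, from 1.14 (Ftl1) to 7.41 (Fn1). Ranks by CPM favor long transcripts. Per kilobase of exon, Sftpc stood at 180380 CPM on day 0 and 47.1 on day 7, Actb at 574 and 2586, and Fn1 at 3.17 and 447.

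Calls were most common in the class with the highest mean level. Classes were set by the mean of the day 0 and day 7 CPM, the same values that the calls rest on. A gene high on a single day could thus enter the top class through its change. Of 95 genes at 1000 CPM or more, 38 were higher and 42 lower, 27 and 29 of them by more than 2-fold, and 10 were steady. Their share of counts fell from 38.3% to 16.2%. In the class from 100 to 1000 CPM, 882 of 2088 genes were higher and 702 lower, and the share rose from 36.1% to 49.9%. Between 10 and 100 CPM, 2444 of 7802 genes were higher and 2722 lower, and this class held 1173 of the 1598 steady genes. Between 1 and 10 CPM, 1506 of 5222 genes were higher and 1584 lower. Below 1 CPM, 435 of 2839 genes were higher and 403 lower, none could be shown to be steady, and the median standard error of the log2 fold change was 0.98, against 0.16 in the class from 100 to 1000 CPM. The median size of the change was lowest in the middle, at 0.74 for 10 to 100 CPM, and 1.78 at 1000 CPM or more. With classes set per kilobase of exon, the top class had 33 genes, 8 higher and 23 lower, and it fell from 31.1% to 6.12% of counts.

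**Figure D2:**
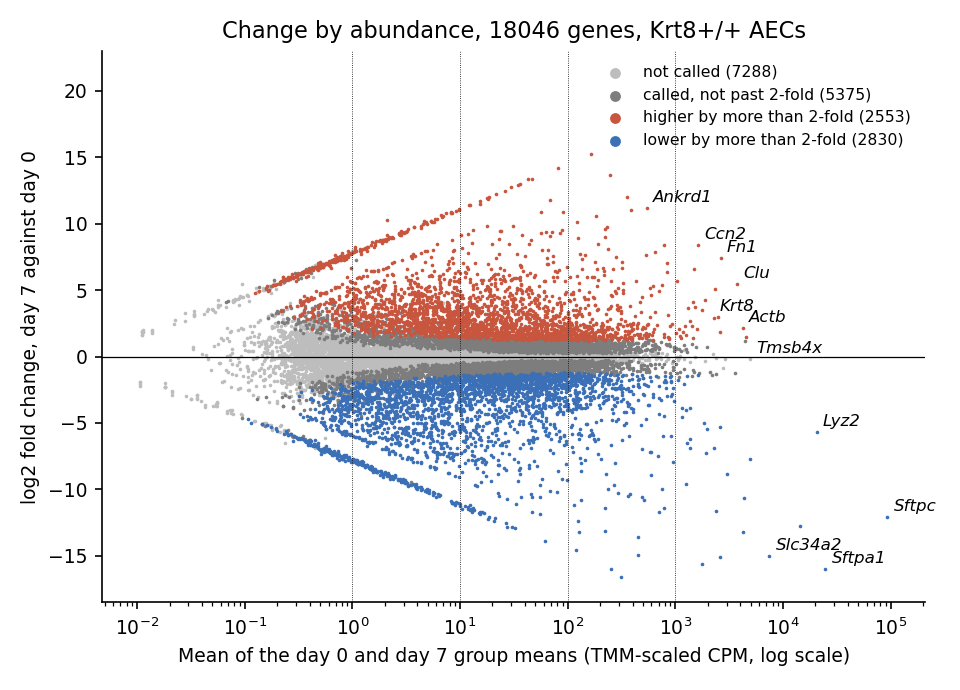
Log2 fold change (day 7 against day 0) of each of 18046 genes against the mean of its day 0 and day 7 level in CPM on a log axis, colored by call, with class borders as dotted lines. Blue genes at the right edge are the surfactant genes and Lyz2, the red ones include Clu, Actb, and Fn1, and the diagonal lines of points are genes with 0 or few counts on one of the days.

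The losses at the top included the surfactant genes. All 14 tested members of the surfactant and lamellar body list fell, each by more than 2-fold, with a median log2 fold change of -11.39 (all genes 0.01). Together they held 19.1%, 22.3%, and 23.2% of counts in the day 0 libraries and 0.0728%, 0.0667%, and 0.0802% in those of day 7. Sftpc (ENSMUSG00000022097, chr14:70520949-70524081, GRCm38), which encodes surfactant protein C and is the standard AEC2 marker, was at 147380, 198970, and 213180 CPM on day 0 and 46.7, 32.2, and 67.4 CPM on day 7 (log2 fold change -12.06, SE 0.70, adjusted p = 6.6e-10, edgeR). Sftpa1 (ENSMUSG00000021789, chr14:41131782-41136452), for the lectin surfactant protein A, was at 43932, 53223, and 51094 CPM on day 0 and 1.77, 0.414, and 0.795 CPM on day 7 (log2 fold change -15.98, SE 1.03, adjusted p = 2.9e-09, edgeR). The groups lay far apart for both genes, and the day 7 libraries kept more Sftpc than Sftpa1 also per kilobase of exon (47.1 and 0.347 CPM). Slc34a2, the phosphate transporter of AEC2s, stood at 15501, 15158, and 14293 CPM on day 0 and 0.884, 0, and 0.729 CPM on day 7 (log2 fold change -15.0, SE 1.21, adjusted p = 3.2e-08, edgeR). The least reduced members were Ctsh, a protease that processes surfactant protein B (-2.35), Adgrf5, a receptor that limits surfactant (-2.60), and Abca3, the lipid pump of the lamellar body (-4.53). In such bulk libraries, fewer cells of a type and less RNA per cell cannot be told apart.

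The bases upstream of 3 AEC2 markers are shown. They were picked by hand among the large losses of the top abundance class, and each run holds a motif. Among the 10 genes of the surfactant list with a promoter window, 2 held a TATA box, 1 AP-1 letters, and 4 TEAD letters. Each run is the 250 bases before the annotated start, 5′ to 3′ on the gene's strand, from RefSeq on GRCm38.p6. Capitals mark a TATA box (TATAAA), an AP-1 site (TGANTCA), or a TEAD site (GGAATG) on either strand. Sftpa1 (chr14:41131538-41131787, plus strand) holds a TATA box at -30 to -25 from the start, Sftpb (chr6:72304360-72304609, plus strand) an AP-1 match at -18 to -12, and Slc34a2 (chr5:53049103-53049352, plus strand) a TEAD match at -92 to -87. A match is a run of letters and says nothing of binding.
Sftpa1: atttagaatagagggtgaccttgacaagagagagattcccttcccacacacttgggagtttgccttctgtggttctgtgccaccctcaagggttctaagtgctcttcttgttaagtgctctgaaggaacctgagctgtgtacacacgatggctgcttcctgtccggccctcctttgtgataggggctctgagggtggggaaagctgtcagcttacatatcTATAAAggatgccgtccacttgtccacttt
Sftpb: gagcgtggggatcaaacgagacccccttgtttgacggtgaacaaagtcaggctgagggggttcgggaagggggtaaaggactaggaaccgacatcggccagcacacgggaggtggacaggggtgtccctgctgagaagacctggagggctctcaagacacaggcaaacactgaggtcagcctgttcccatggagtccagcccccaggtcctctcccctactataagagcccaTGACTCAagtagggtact
Slc34a2: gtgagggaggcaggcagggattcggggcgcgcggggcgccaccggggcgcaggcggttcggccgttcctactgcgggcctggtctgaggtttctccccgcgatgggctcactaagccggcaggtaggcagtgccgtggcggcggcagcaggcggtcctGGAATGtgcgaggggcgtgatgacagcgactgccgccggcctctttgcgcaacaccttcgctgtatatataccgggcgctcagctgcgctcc

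Transcription factors of the alveolar epithelium mostly fell with them. Of 22 tested, 17 were lower and 3 higher (median -1.93). Nkx2-1, the master regulator of lung epithelial identity, fell from 590.2 ± 51.9 to 66.1 ± 9.48 CPM (SD, n = 3 each, log2 fold change -3.17, adjusted p = 8.9e-11, edgeR), so a measurable part of it remained. Etv5, an ETS factor that maintains AEC2s, fell more (1808 ± 77.5 to 27.6 ± 8.56 CPM, log2 fold change -6.01). Elf5, another ETS factor, had 12.7, 20.5, and 26.7 CPM on day 0 and 0 counts in all 3 libraries of day 7, at least 278-fold lower when a floor of 3 counts over the group is used. The 3 that rose were Sox9, a factor of distal lung progenitors (0.622 to 71.5 CPM, log2 fold change 6.92), Hopx, an AEC1 marker (1.84), and Tead1, a DNA-binding partner of YAP and TAZ (2.05).

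Lipid synthesis fell as a group. Of 26 genes for fatty acid and phospholipid synthesis, 23 were lower and 2 higher (median -2.88), and their share of counts went from 1.99%, 1.55%, and 1.71% to 0.197%, 0.214%, and 0.249%. Scd1, which puts the first double bond into saturated fatty acids, went from 9817 ± 1052 to 46.8 ± 8.63 CPM (SD, n = 3 each, log2 fold change -7.72, SE 0.90, adjusted p = 1.6e-06, edgeR). Fasn, the fatty acid synthase, had a log2 fold change of -3.85, and Srebf1, a transcription factor that drives the pathway, one of -2.94. The 2 exceptions were Elovl6, an elongase at a low level (0.595 to 11.1 CPM, log2 fold change 4.20), and Me1, malic enzyme (0.33). Leaving out any 1 of the 3 batches left 1 of the 2 called. Of 22 genes of the sterol synthesis list, 20 were lower and none higher (median -2.12), with Idi1, an isomerase of the isoprenoid pathway, among them (573 to 56.9 CPM, log2 fold change -3.32, SE 0.30, adjusted p = 8e-08, edgeR). Of 27 genes of fatty acid oxidation and peroxisomes, 19 fell and 3 rose (median -1.49). The largest fall of this list was Acoxl, an acyl-CoA oxidase-like gene, with 656, 622, and 615 CPM on day 0 and 0 counts on day 7, at least 8796-fold lower.

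Secreted defense and antigen presentation genes also fell. Of 19 secreted host defense genes, 17 were lower and 1 higher (median -7.82), and their share of counts was 5.34%, 6.45%, and 6.90% on day 0 and 0.474%, 0.182%, and 0.0698% on day 7. C6, a component of the complement membrane attack complex, went from 496, 557, and 475 CPM to 0 counts, at least 7100-fold lower. The member that rose was Lgals3, galectin 3 (2.08). Lyz2, lysozyme M, was at 34613, 40510, and 44321 CPM on day 0 and 3017, 839, and 15.5 CPM on day 7 (log2 fold change -5.67, SE 1.29, adjusted p = 0.0012, edgeR). Its 3 day 7 values lay far apart, unlike those of Sftpc. On day 7 the summed level of 14 macrophage markers followed the same order of batches, at 264, 82.5, and 14.2 CPM. On day 0 that sum was 164, 80.7, and 26.3 CPM, the opposite order to Lyz2. The part of macrophage RNA in the Lyz2 values was not tested. Lyz1 and Lyz2 are close paralogs, so reads may be split between them. Of 9 genes of MHC class II presentation, 8 fell (median -4.64), with Cd74, the invariant chain, at 4112, 5186, and 5759 CPM on day 0 and 109.9, 118, and 155 CPM on day 7 (log2 fold change -5.32, SE 0.53, adjusted p = 3.2e-07, edgeR). The 1 that rose was Ctss, cathepsin S, at 21.8, 11.04, and 0.996 CPM on day 0 and 129, 41.5, and 1.39 CPM on day 7, again in the order of the macrophage markers, and its call was lost without batch 1 (log2 fold change 1.48). Of 15 MHC class I genes, 11 fell and none rose (median -1.26). B2m, the light chain shared by all class I molecules, was among the 4 not called (-0.01).

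**Figure D3:**
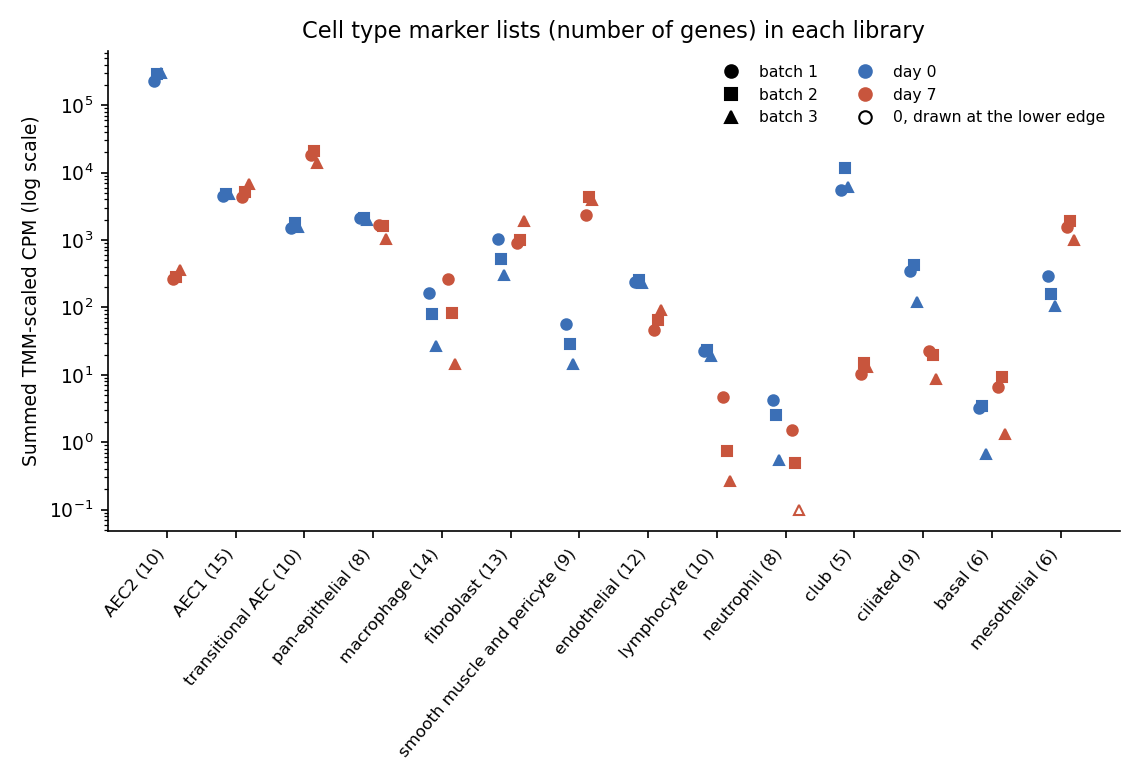
Summed CPM of each cell type marker list (number of genes in parentheses) in each library, on a log axis, with batches as symbols and days as colors. AEC2 and club markers sit lower on day 7 in every batch, transitional and smooth muscle markers higher, and the macrophage sums differ more between batches than between days.

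Markers of the labelled cell type were high on day 0. The 10 AEC2 markers summed to 231290, 295210, and 305230 CPM on day 0 and to 263, 287, and 365 CPM on day 7, and all 10 fell. The 10 markers of the transitional state all rose, with sums of 1528, 1767, and 1585 CPM against 18463, 21304, and 13999 CPM (median log2 fold change 3.74). Among 15 AEC1 markers, 12 were higher and 2 lower, but the sums overlapped, at 4430.3, 4739.6, and 4882 CPM on day 0 and 4370.3, 5103, and 6866 CPM on day 7. The 2 lower ones were Ager (1908 to 983 CPM, log2 fold change -1.01), which encodes the receptor RAGE, and Aqp5 (698 to 102 CPM, -2.80), a water channel, while Igfbp2 (4.67), Akap5 (4.87), and Pdpn (4.73) rose. The call of Ager was lost without batch 1, without batch 3, and under total counts. Of 8 pan-epithelial markers, 3 were lower and none higher, and none was at 0 in any library.

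Markers of other lung cells were present as well, and their part in the results below was not tested. Markers of club cells, the secretory cells of the airway, summed to 5498, 11623, and 6119 CPM on day 0 and to 10.1, 14.9, and 13.1 CPM on day 7, led by Scgb1a1 (5976 to 12.2 CPM). Endothelial markers fell from 231 to 257 CPM to 46.2 to 91.3 CPM, with 1 of 7 higher and 5 lower. Fibroblast markers summed to 1020.5, 524, and 304 CPM on day 0 and to 911, 1017, and 1936 CPM on day 7, and of 13 tested, 5 rose and 5 fell. Among those that rose was Col1a1 (3.56), and among those that fell were Dcn (-3.52) and Pi16 (-6.71). Smooth muscle and pericyte markers went from 56.5, 28.6, and 14.3 CPM to 2339.5, 4299, and 3915 CPM, and 6 of 7 tested rose. Acta2, Tagln, and Cnn1 carried most of that sum, Notch3 was not called (-0.10), and the pericyte markers Rgs5 and Higd1b were too low to be tested. Of 6 mesothelial markers, Msln rose (34.8 to 1461 CPM, log2 fold change 5.39) and 4 fell. All 9 ciliated cell markers and 5 of 6 lymphocyte markers tested fell. Neutrophil markers summed to at most 4.26 CPM and basal cell markers to at most 9.20 CPM in any library.

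Cytoskeletal genes rose widely. Of 38 actomyosin and focal adhesion genes, 35 were higher, 31 of them by more than 2-fold, and 1 was lower (median 2.98). Their share of counts rose from 0.834%, 0.812%, and 0.780% to 4.38%, 5.14%, and 4.30%. The cytoplasmic actins Actb (1536 to 6929 CPM, log2 fold change 2.15, SE 0.18, adjusted p = 2.8e-08, edgeR) and Actg1 (2421 to 6622 CPM, log2 fold change 1.45) were high already on day 0. The genes that rose most were of the smooth muscle kind. Acta2, smooth muscle actin, was at 22.99, 14.5, and 4.54 CPM on day 0 and 986, 2123, and 1921 CPM on day 7 (log2 fold change 7.0, SE 0.54, adjusted p = 1.9e-08, edgeR), and Tagln, transgelin, at 10.5, 4.005, and 3.43 CPM on day 0 and 962, 1514, and 1423 CPM on day 7 (log2 fold change 7.84). Batch 1 had the highest day 0 and the lowest day 7 level of both. The member that fell was Myh14, a nonmuscle myosin heavy chain (635 to 301 CPM, log2 fold change -1.08), while its relatives Myh9 (2.08) and Myh10 (2.89) rose.

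Keratins went both ways by number of genes, and most desmosome genes rose. Of 20 keratin genes tested, 9 were higher (45.0%), 4 lower, and 7 not called (median 1.40). The share higher was above the 29.4% of all genes, and the share lower was below the 30.2% of all. Keratins went from 0.113%, 0.121%, and 0.116% of counts to 1.38%, 1.61%, and 1.01%. Krt8 (ENSMUSG00000049382, chr15:101996698-102004482) was at 484, 551, and 533 CPM on day 0 and 4038, 5088, and 2954 CPM on day 7 (log2 fold change 2.93, SE 0.21, adjusted p = 5.3e-09, edgeR), and its dimer partner Krt18 at 244, 299, and 312 CPM on day 0 and 3347, 4224, and 2259 CPM on day 7 (log2 fold change 3.50). Krt20, at 0 counts on day 0, reached 4.15, 9.199, and 5.23 CPM on day 7. Of the 4 that fell, Krt23 was the one with a sizable day 0 level (317 to 5.16 CPM, log2 fold change -5.94), and the others were Krt10, Krt15, and Krt76. Only 1 of the 4 was called without batch 1, and 2 without batch 3. Of 14 desmosome and keratin linker genes, 12 rose. The desmosomal plaque gene Pkp1 went from 0 counts to 99.7, 56.4, and 23.7 CPM, at least 673-fold higher. Tight junction genes were mixed, with 8 of 25 higher and 7 lower. These are 32.0% and 28.0%, near the 29.4% and 30.2% of all genes (median 0.05, and -0.06 without batch 1). Among them, Cldn6 (9.40) and Cldn4 (9.38) rose and Cldn3 (-2.25) fell.

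Matrix and adhesion genes rose steeply from low levels. Of 29 fibrillar and matricellular genes, 24 were higher, 23 by more than 2-fold, and 4 lower (median 3.89), and their share of counts went from 0.168%, 0.101%, and 0.0897% to 1.98%, 2.47%, and 2.52%. Fn1, fibronectin, was at 83.7, 14.1, and 13.3 CPM on day 0 and 4066, 7096, and 4508 CPM on day 7 (log2 fold change 7.41, SE 0.71, adjusted p = 2e-07, edgeR), with batch 1 the highest on day 0. Thbs1, the TGF-β-activating thrombospondin 1, was at 178, 119, and 112 CPM on day 0 and 3985, 5124, and 4463 CPM on day 7 (log2 fold change 5.11, SE 0.40, adjusted p = 1.8e-08, edgeR). Lox, the collagen cross-linking lysyl oxidase, rose from 4.92 to 1554 CPM (log2 fold change 8.42). The 4 that fell were Col6a1 (227 to 14.4 CPM, -3.93), Col6a2, Eln, and Fbln1, of which Eln lost its call without batch 1 and without batch 2. Of 24 integrins, 12 rose, and Itga2, a collagen receptor subunit, rose most (0.289 to 177 CPM, 9.51). Of 21 laminin and basement membrane genes, 14 rose (median 1.39). Of 46 matrix proteases and inhibitors, 28 rose and 9 fell (median 2.06). Mmp13, an interstitial collagenase, had 0 counts on day 0 and 124, 38.7, and 91.5 CPM on day 7, at least 952-fold higher.

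Target genes of YAP and TAZ, transcriptional coactivators that respond to spreading and stiffness, rose in number. Of 25 tested, 21 were higher and 2 lower (median 2.45), and their share of counts went from 0.137%, 0.0948%, and 0.0998% to 1.35%, 1.40%, and 1.28%. Ccn2, a matricellular growth factor modulator, was at 20.3, 6.71, and 4.43 CPM on day 0 and 3061, 3443, and 3143 CPM on day 7 (log2 fold change 8.36, SE 0.52, adjusted p = 1.8e-09, edgeR). Ankrd1 (ENSMUSG00000024803, chr19:36111961-36120099), a nuclear ankyrin repeat protein, was at 0.889, 0, and 0.221 CPM on day 0 and 998, 1226, and 1024 CPM on day 7 (log2 fold change 11.19, SE 0.51, adjusted p = 7e-11, edgeR). F3, tissue factor, which starts coagulation, rose from 31.1 ± 5.78 to 2967 ± 578 CPM (log2 fold change 6.57). The day 7 values of all 3 genes lay within a factor of 1.5 of each other across batches. Of the coactivator genes themselves, Wwtr1 (TAZ) rose (1.23), and Yap1 was not called (log2 fold change 0.15, adjusted p = 0.39, edgeR), except under total counts.

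The upstream bases of 4 genes that rose are shown because each holds a motif tied to one of these groups. They are Ankrd1 (chr19:36119845-36120094, minus strand) with TEAD matches at -210 to -205 and at -123 to -118 from the start, and F3 (chr3:121723287-121723536, plus strand) with AP-1 matches at -146 to -140 and at -135 to -129. Mmp13 (chr9:7272264-7272513, plus strand) has an AP-1 match at -35 to -29 and a TATA box at -16 to -11, and Actg1 (chr11:120348496-120348745, minus strand) a CArG box, the serum response factor motif, at -90 to -81. Capitals mark these motifs, and source, build, and orientation are as for the surfactant genes.
Ankrd1: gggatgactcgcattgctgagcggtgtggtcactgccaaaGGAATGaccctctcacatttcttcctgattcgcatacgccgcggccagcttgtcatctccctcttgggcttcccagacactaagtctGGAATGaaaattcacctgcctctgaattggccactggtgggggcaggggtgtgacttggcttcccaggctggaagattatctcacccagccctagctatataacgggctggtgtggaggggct
F3: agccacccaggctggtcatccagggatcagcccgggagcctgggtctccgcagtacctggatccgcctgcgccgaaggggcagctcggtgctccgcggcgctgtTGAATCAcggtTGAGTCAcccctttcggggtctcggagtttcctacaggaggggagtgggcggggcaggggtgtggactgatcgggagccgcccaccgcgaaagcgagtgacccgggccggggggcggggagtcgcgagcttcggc
Mmp13: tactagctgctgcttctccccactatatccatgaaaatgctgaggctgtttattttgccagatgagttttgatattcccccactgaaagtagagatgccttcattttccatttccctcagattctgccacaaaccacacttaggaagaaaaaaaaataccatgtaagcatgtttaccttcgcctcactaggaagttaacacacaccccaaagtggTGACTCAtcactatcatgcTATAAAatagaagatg
Actg1: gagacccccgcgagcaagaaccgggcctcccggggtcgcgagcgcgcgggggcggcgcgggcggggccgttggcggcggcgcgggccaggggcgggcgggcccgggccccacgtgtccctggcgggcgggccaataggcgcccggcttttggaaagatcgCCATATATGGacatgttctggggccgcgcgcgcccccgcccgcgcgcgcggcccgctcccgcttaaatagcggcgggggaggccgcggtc

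Among the genes tested that had a promoter window, composition differed between the steady genes and those that moved by more than 2-fold. Their levels differed too. Of the 1598 steady genes, none was below 1 CPM and 20 were between 1 and 10 CPM. The part of level in the contrast was not tested. Windows of 300 bases, from 250 before to 50 after the start, were matched to 11689 of the genes tested. The ratio of observed to expected CpG was 0.6 or more in 85.1% of steady genes, 58.9% of those higher by more than 2-fold, 51.2% of those lower by more than 2-fold, and 67.2% of all genes tested with a window. It was lowest for genes that crossed 1 CPM, at 40.4% of 634 genes that rose from below that level and 31.2% of 789 that fell below it. The other genes past 2-fold stood at 69.5% (higher) and 64.0% (lower), and genes not called at 69.0%. A TATA box (either strand) was found in 10.4% of higher, 8.53% of lower, and 4.81% of steady genes, against 7.78% of genes tested with a window and 14.2% of all 27025 windows in the table. AP-1 letters were in 8.56%, 5.87%, and 3.37% of these groups, in 5.46% of genes tested, and in 7.93% of all windows. A CArG box was in 2.53%, 0.986%, and 0.962%, in 1.36% of genes tested, and in 1.57% of all windows. TEAD letters differed less, at 13.2%, 14.4%, and 11.1%, with 12.3% of genes tested and 14.6% of all windows. Among the lists, 10 of 18 YAP/TAZ targets held a TEAD match and 6 of 31 actomyosin genes a CArG box. TEAD letters were also in 4 of 10 surfactant genes, a list whose tested members all fell. The pairs of list and motif named here are a selection. CCAAT was found in 14 of 15 sterol genes and in 20 of 27 cell cycle genes, against 38.2% of genes tested and 37.9% of all windows. It was also in 15 of 20 genes of the unfolded protein and integrated stress response and in 12 of 16 clock genes. GGGCGG, the GC box, was in 14 of the same 15 sterol genes, against 61.9% of genes tested and 35.9% of all windows. These are counts of letters, on both strands and with no test. A CArG box can contain a TATA box or CCAAT.

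Secreted signals changed in composition. Of 46 growth factors and cytokines, 30 were higher and 7 lower (median 2.35). Grem1, a BMP antagonist, had 0 counts on day 0 and 167, 118, and 204 CPM on day 7, at least 1831-fold higher. Inhba, a subunit of activin A, was at 0.254, 0.216, and 0 CPM on day 0 and 781, 703, and 629 CPM on day 7, from 6 counts in all on day 0 (adjusted p = 3e-11, edgeR). Csf1, the macrophage growth factor, rose from 30.8 to 1202 CPM (log2 fold change 5.28). In the other direction Il33, an alarmin held in AEC2 nuclei, fell from 1169.6, 952, and 972 CPM to 1.02, 0.663, and 0.331 CPM (log2 fold change -10.79, SE 1.11, adjusted p = 4.3e-07, edgeR). Chemokines went both ways, with 10 of 25 higher and 6 lower, and their share of counts was 0.366%, 0.430%, and 0.441% on day 0 and 0.115%, 0.0543%, and 0.0306% on day 7. The day 7 shares stood in the order of the macrophage marker sums (264, 82.5, and 14.2 CPM), whose part in them was not tested. Cxcl15, the lung epithelial chemokine lungkine, was at 4279, 5539, and 5694 CPM on day 0 and at most 0.265 CPM on day 7 (log2 fold change -15.08). It made up most of the chemokine sums of day 0 (4533, 5772, and 5887 CPM), so the fall in share was mainly its own. The sums of day 7, at 1076, 527, and 290 CPM, came from other members. Ccl2 rose from 0.311 to 17.4 CPM (5.71). The number of higher chemokines was 6 in place of 10 without batch 1 and without batch 2.

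Immediate early factors moved both ways. Of 22 AP-1 and immediate early genes, 8 rose (36.4%) and 9 fell (40.9%), against 29.4% and 30.2% of all genes (median 0.12). Past 2-fold, 8 were higher and 8 lower. Fos, a short-lived AP-1 subunit, was at 579.7, 118, and 160.2 CPM on day 0 and 8.91, 5.88, and 6.82 CPM on day 7 (log2 fold change -5.09, SE 0.57, adjusted p = 1.3e-06, edgeR), and batch 1 stood apart on day 0. Nr4a1 (-3.30), Egr1 (-1.68), and Jun (-1.68) fell as well, Egr1 losing its call without batch 1 and without batch 2. Fosl1, another AP-1 subunit, went from 0.381, 0, and 0.221 CPM to 30.5, 29.1, and 70.3 CPM (log2 fold change 7.44), and Myc rose (3.93). Cadherins and regulators of epithelial identity moved as well, with 11 of 17 higher and 3 lower (Esrp2, Ovol1, and Ovol2). Cdh2, N-cadherin, rose from 0.445, 0.433, and 0 CPM to 42.9, 51.1, and 108 CPM (log2 fold change 7.68), and Vim from 26.1 to 633 CPM (4.76). Batch 3 had the highest day 7 level of both, as it had for the fibroblast markers. Cdh1, E-cadherin, was at 1188, 1071, and 1018 CPM on day 0 and 801, 889.6, and 607 CPM on day 7, and its fall did not pass the test (log2 fold change -0.52, adjusted p = 0.079, edgeR), although the groups did not overlap and it was called without batch 2 (-0.58).

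Cell cycle genes rose from low levels together with inhibitors of the cycle. Of 35 cell cycle and DNA replication genes, 33 were higher, 26 by more than 2-fold, and none lower (median 2.87). Mki67, a marker of cycling cells, was at 1.08, 4.11, and 4.204 CPM on day 0 and 41.6, 19.8, and 37.9 CPM on day 7 (log2 fold change 3.49, SE 0.52, adjusted p = 2.3e-05, edgeR), and Rrm2, a ribonucleotide reductase subunit, at 3.303, 5.63, and 3.098 CPM on day 0 and 102, 65.1, and 137 CPM on day 7 (log2 fold change 4.65). Batch 2 was the lowest of day 7 for both. Of 23 CDK inhibitors and p53 targets, 15 rose and 4 fell (median 2.24). Cdkn1a, the p21 inhibitor, was at 52.2, 60.7, and 41.4 CPM on day 0 and 696, 679, and 749.8 CPM on day 7 (log2 fold change 3.78, SE 0.28, adjusted p = 8.2e-09, edgeR), with no overlap between groups. Cdkn1c (37.7 to 4.81 CPM, -2.96), Cdkn1b, Bbc3, and Sesn1 were the 4 that fell.

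Most genes of the machinery of protein synthesis and breakdown rose. Of 77 cytosolic ribosomal protein genes, 64 were higher and none lower, 7 of them by more than 2-fold (median 0.94), and the number higher was 34 without batch 1. All 20 cytosolic tRNA synthetase genes rose, 11 by more than 2-fold (median 1.31), led by Nars, for asparagine, at 115, 122, and 128 CPM on day 0 and 647, 744, and 689.5 CPM on day 7 (log2 fold change 2.51, SE 0.27, adjusted p = 6.2e-07, edgeR). Asns, the asparagine synthetase of the amino acid response, rose from 19.5 ± 5.11 to 222 ± 18.9 CPM (log2 fold change 3.50). All 8 subunits of the CCT chaperonin, which folds actin and tubulin, rose, 6 by more than 2-fold (median 1.35). Of 37 proteasome genes, 30 rose, 3 by more than 2-fold, and 3 fell (median 0.92). The 3 that fell, Psmb8 (-1.93), Psmb9 (-3.67), and Psmb10 (-1.26), are the catalytic subunits of the immunoproteasome, named after their values were seen. Of 22 genes of the unfolded protein and integrated stress response, 10 rose (45.5%) and 5 fell (22.7%), against 29.4% and 30.2% of all genes. The median was 0.46, and 6 were higher without batch 1. The 5 that fell were Herpud1 (-2.48), Dnajb9 (-1.27), Xbp1 (-1.19), Sel1l, and Creld2, genes of the endoplasmic reticulum branch that were also named after their values were seen. The call of Dnajb9 was lost without batch 1.

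Energy metabolism divided by pathway. Of 21 glycolysis genes, 14 rose, 9 by more than 2-fold, and 3 fell (median 0.93), and the list went from 0.301%, 0.335%, and 0.306% of counts to 1.21%, 1.06%, and 1.22%. Eno1, enolase 1, was at 148, 187, and 148 CPM on day 0 and 2733, 2625, and 2907 CPM on day 7 (log2 fold change 4.11, SE 0.15, adjusted p = 7.2e-12, edgeR), and its near-identical copy Eno1b shares its reads. The lactate dehydrogenase subunits differed, as Ldhb fell from 395 ± 64.95 to 38.1 ± 6.83 CPM (log2 fold change -3.38, SE 0.23, adjusted p = 3.6e-09, edgeR) and Ldha was at 1007 to 1392 CPM (log2 fold change 0.47, adjusted p = 0.053). All 13 respiratory subunits encoded by the mitochondrial genome fell, 3 by more than 2-fold (median -1.28), and the mitochondrial genome held 1.99% ± 0.081 of counts on day 0 and 1.17% ± 0.130 on day 7 (SD, n = 3 each, exact permutation p = 0.1, the smallest possible). Of 79 respiratory subunits encoded in the nucleus, 7 rose, 18 fell, and 26 were steady (median -0.01). That split depended on the scaling, with 33 higher and 5 lower under total counts (median 0.45), and on the batches, with 4 higher without batch 1 and 6 and 8 lower without batches 2 and 3. Of 18 genes of the tricarboxylic acid cycle, 5 rose (27.8%) and 10 fell (55.6%), against 29.4% and 30.2% of all genes. The median was -0.38, and total counts moved it to 0.07.

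**Figure D4:**
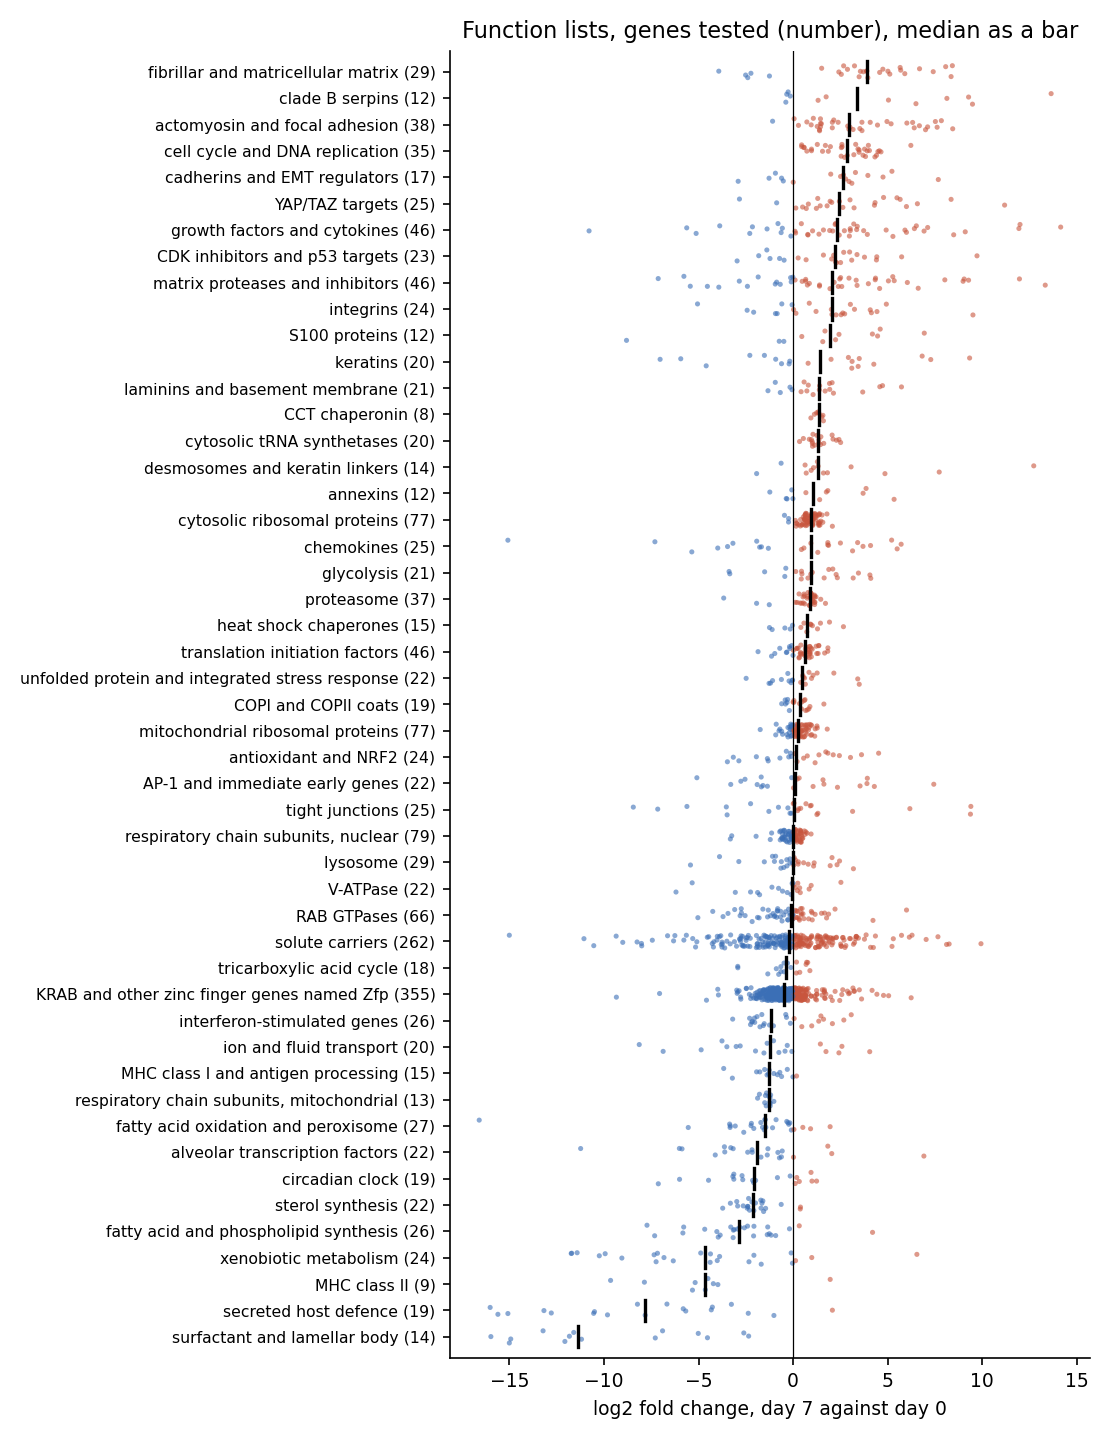
Log2 fold change (day 7 against day 0) of each gene of the function lists, with the number tested in parentheses and the median as a black bar, red above 0 and blue below. Surfactant genes have a median of -11.39 and fibrillar and matricellular matrix genes of 3.89, while nuclear respiratory subunits lie close to 0.

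Xenobiotic metabolism, ion transport, and clock genes had more members lower than higher, while antioxidant genes were mixed. Of 24 xenobiotic metabolism genes, 19 fell and 1 rose (median -4.63). Cyp2f2, a P450 enzyme of club cells, went from 1397 to 0.430 CPM, and the gene that rose was Cyp1b1 (2.84 to 267 CPM, log2 fold change 6.55). Of 20 ion and fluid transport genes, 11 fell and 5 rose (median -1.20), with the sodium pump subunit Atp1b1 among the falls (1636 to 204 CPM, -3.01) and the anion channel Ano1 among the rises (93.2 to 499 CPM, 2.42). Of 24 antioxidant genes, 10 rose (41.7%) and 7 fell (29.2%), against 29.4% and 30.2% of all genes (median 0.15). Nqo1, a classic NRF2 target, was at 3.75, 3.79, and 5.86 CPM on day 0 and 62.8, 97.9, and 153 CPM on day 7 (log2 fold change 4.52). Of 19 circadian clock genes, 11 fell and 3 rose (median -2.09). Dbp, a clock output factor, was at 115, 136, and 141 CPM on day 0 and 0.680, 2.65, and 2.78 CPM on day 7 (log2 fold change -6.0, SE 0.63, adjusted p = 6e-07, edgeR), while Arntl (-0.15) and Clock (0.11), the activators of the clock, were not called, though Clock was under total counts.

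Some genes stayed where they were. Arf1, Hnrnpf, Polr2m, and Gdi2 were among the 5 genes of at least 100 CPM with the narrowest interval within 1.5-fold. Arf1, a small GTPase of Golgi traffic, was at 682, 751, and 767 CPM on day 0 and 739, 697, and 699 CPM on day 7 (log2 fold change -0.04). The day 7 values lay within the range of day 0. Under total counts it would be at 0.41, near the 0.46 of the median gene on that scale. Hnrnpf, Polr2m, and Gdi2 were called higher by a small amount, from 0.28 to 0.34, and lost the call without batch 1. Of all steady genes, 75 were called, counting both directions. Steady members were 26 of 79 nuclear respiratory subunits, against 8.86% of all genes. That background includes the genes below 10 CPM, few of which could be shown to be steady. Between 10 and 100 CPM, 1173 of 7802 genes were steady, and between 100 and 1000 CPM, 395 of 2088. Among mitochondrial ribosomal protein genes, 22 of 77 were steady, so a share above 8.86% was not particular to the respiratory subunits. The part of level in these shares was not tested.

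**Figure D5:**
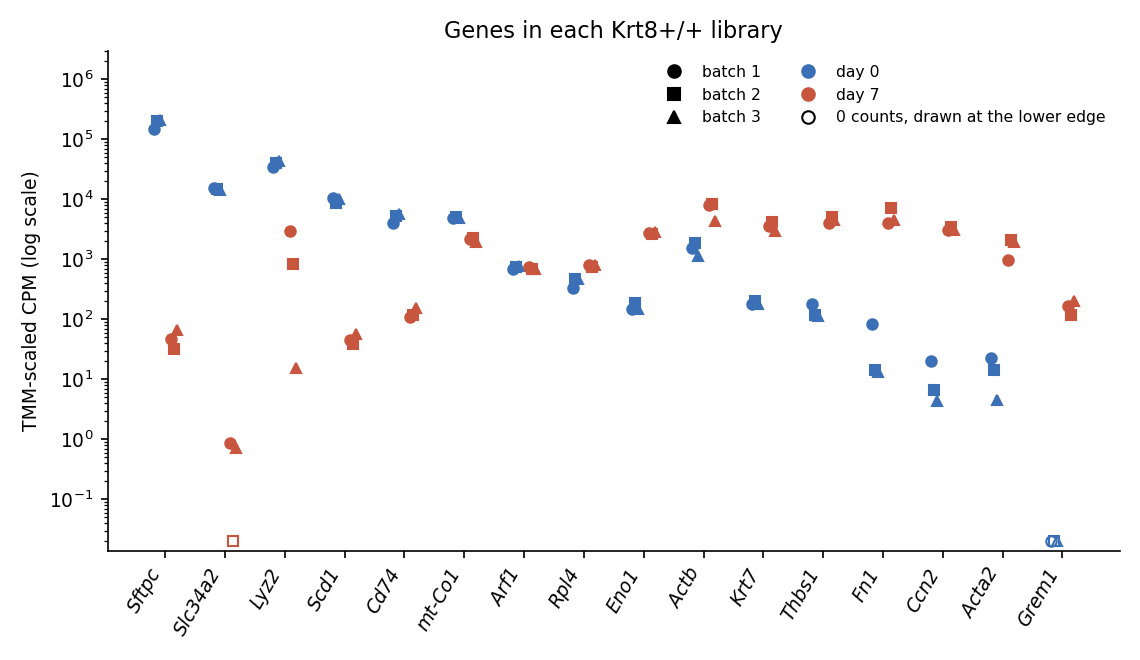
CPM (log axis) of 16 genes in each of the 3 day 0 (blue) and 3 day 7 (red) libraries, with batches as symbols and open symbols at the lower edge for 0 counts. Arf1 is level, Sftpc falls from at least 147380 to at most 67.4 CPM, Grem1 appears only on day 7, and the Lyz2 values of day 7 spread from 15.5 to 3017 CPM.

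Many genes crossed a level of 1 CPM. The number at 1 CPM or more was 14656 on day 0 and 14362 on day 7, with 13006 on both. Of genes higher by more than 2-fold, 1025 had been below 1 CPM on day 0, and of those lower by more than 2-fold, 1218 were below 1 CPM on day 7. Among tested genes, 366 had 0 counts in all 3 libraries of day 0 and 383 in all 3 of day 7. Prl2c2, a prolactin family gene with near-identical copies, went from 0 counts to 114, 253, and 613 CPM, at least 3669-fold higher. Cck, the peptide hormone cholecystokinin, went from 0 counts to 110.0, 51.5, and 118 CPM, and Sox11, a developmental transcription factor, was at least 206-fold higher. Pon1, a lactonase, fell from 107, 138, and 122 CPM to 0 counts, at least 1705-fold lower. Inmt, a methyltransferase of lung, fell to 0 counts from 142, 39.6, and 10.5 CPM, so its size rests on batch 1.

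Cells without keratin 8 were examined for a difference in the same change. In Krt8–/– AECs, whose 6 libraries of days 0 and 7 are separate samples with batches shared with the Krt8+/+ ones, 99.7% of the genes called in Krt8+/+ AECs had a fold change of the same sign. A difference between the genotypes in the day 7 change passed the test for 2 genes (0.0111%), Krt8 itself and Krt8-ps. At an unadjusted p below 0.05 there were 364 genes (2.02%), and DESeq2 called 5. The median size of the difference was 0.22 on the log2 scale.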

How the data were processed

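RNA was isolated from AEC2s of Krt8+/+ and Krt8–/– mice on days 0, 1, 3, and 7 (24 libraries, 8 groups of 3). The authors deposited 1 table of raw counts per gene. The submitters' processing notes name cutadapt 2.3, STAR 2.7.8a, RSEM 1.3.3, and the build GRCm38, without their roles. The counts are whole numbers and may be rounded RSEM estimates. For strandedness and annotation, the entry is: not given in the sources used here. Of 55426 entries, 5 are reporters with 0 counts, and GENCODE M21 gave symbols for 55240 of the 55421 Ensembl identifiers. Totals ranged from 10184439 to 19483386 counts, and floors of 3 counts per group of 3 libraries cover counting error only.

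The counts were analyzed in R 4.3.3. The filter filterByExpr, with min.count at 10 and min.total.count at 15, kept 18046 genes. TMM-scaled counts of all 24 libraries were fitted with edgeR 4.0.16 (robust quasi-likelihood), with batch within genotype as 6 blocks and 12 residual degrees of freedom. Changes past 2-fold were tested with glmTreat, and intervals within 1.5-fold with limma 3.58.1 (voom). P values were adjusted by Benjamini-Hochberg over all genes tested, at 0.05. Shares of counts were compared by exact permutation. The labels give paired libraries the same batch date and biological replicate number. The correlation across genes between the deviations of paired libraries from the mean of their group was 0.118, 0.0406, and 0.152 for batches 1, 2, and 3.

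The comparison, the gene lists, and the tests were chosen with earlier results of these data known. Named genes were the 3 largest rises and falls in each abundance class from 1 CPM up (called, same direction in 3 batches), the 10 most abundant genes of each day, the 5 genes that gained and the 5 that lost most share, the 5 steadiest (1 is not reported here), the 2 most abundant members and the largest rise and fall of each list, cell type markers, and the 5 smallest interaction p values. Other list members named were picked for their role or after their values were seen. Genes sharing near-identical copies are uncertain. Promoters came from a RefSeq table of 27025 genes on GRCm38.p6, of which the first window of each gene was used. The table holds no window for Sftpc, Ccn2, Tagln, Scd1, Actb, Clu, and Fosl1. The model was tested on simulated counts. Alternatives were DESeq2 1.42.0 (size factors, test), total counts, no filter, no replicate block, a fit of the 6 libraries, and each batch left out. The authors' single-cell and tissue data were not analysed here.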

Additional observations from a re-analysis of the deposited data

Results flagged for a closer look

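Krt8 and Krt8-ps were the 2 genes whose day 7 change differed between Krt8+/+ and Krt8–/– AECs by the test of the interaction (edgeR, adjusted over 18046 genes). The change of Krt8 in Krt8–/– cells minus that in Krt8+/+ cells was -2.88 on the log2 scale. Krt8 is the gene that was knocked out. For Krt8-ps, a Krt8 pseudogene of near-identical sequence, the difference was -2.66, and reads of the gene and of its copy may be split between them. Mtbp (-1.65) and Chtf18 (-3.19) were also called by DESeq2, but not by edgeR.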

How the results depend on the processing

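The numbers of genes higher and lower were 5305 and 5453. They were 5334 and 5414 with DESeq2 size factors, 5464 and 5538 with the DESeq2 test, 5061 and 5080 without a filter, and 7633 and 3801 with total counts. Without the replicate block they were 5146 and 5451, and a fit of the 6 libraries with the block gave 4405 and 4763. Leaving out a batch gave 4275 to 4722 higher and 4356 to 4861 lower, and 856 to 1024 steady genes in place of 1598. These fits have fewer libraries.

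The genotype difference was called for 2 genes, for 1 without the replicate block, for 0 to 1 with a batch left out, and for 5 by the DESeq2 test. The 6 libraries hold 1 genotype and give no such value. At a CpG ratio of 0.75 in place of 0.6, 40.2% of genes higher and 33.3% of genes lower by more than 2-fold were CpG-rich.

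Signs turned for genes with small fold changes, from -0.43 (Dnaja1) to 0.11 (Clock) in the main fit. Total counts gave Tmsb4x 0.26, Arf1 0.41, Eif1 0.10, Atp6v1g1 0.15, Hspa8 0.42, Dnaja1 0.017, Prdx6 0.37, Serpinb9 0.20, Notch3 0.35, Arntl 0.30, and B2m 0.45, on a scale where the median gene was at 0.46. Without a filter Hspa8 was at 0.0013 and B2m at 0.024, and B2m was at 0.0017 with DESeq2 size factors and 0.0021 with the DESeq2 test. Arcn1 was at -0.0030 without the replicate block and at -0.019 in the 6 libraries, where Rab7 was at -0.010. With a batch left out, the ranges were -0.42 to 0.033 for Tmsb4x, -0.12 to 0.056 for Arf1, -0.057 to 0.088 for Arcn1, -0.21 to 0.14 for Hspa8, -0.20 to 0.054 for Prdx6, -0.025 to 0.11 for Rab7, -0.30 to 0.075 for Notch3, -0.60 to 0.15 for Arntl, -0.18 to 0.20 for B2m, and -0.16 to 0.33 for Clock. The cause was not tested. No other gene whose fold change is given in the text changed sign under these settings. Below 1 CPM, counting error limits what the depth can show.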

Other observations

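Processed pseudogenes and antisense transcripts did not divide as protein-coding genes did. Of 14376 protein-coding genes tested, 4504 were higher and 4804 lower on day 7 (median log2 fold change -0.02). Of 2089 processed pseudogenes, 562 were higher and 163 lower (median 0.51). These are copies of mRNAs and can take reads from their parent genes. Of 331 antisense transcripts, 38 were higher and 130 lower (median -1.09), and of 325 lincRNAs, 72 were higher and 98 lower (median -0.32). The share of lincRNAs that were lower was near the 30.2% of all genes tested, and the share higher was below the 29.4% of all. These medians are on the TMM scale, where the median of all genes was 0.01, against 0.46 under total counts. Without known strandedness, reads of an antisense transcript and of its partner cannot be told apart.

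Over all genes tested, 29.4% were higher and 30.2% lower. Among the large gene families, 42 of 355 zinc finger genes named Zfp were higher and 145 lower (median -0.46). Under total counts the numbers were 88 and 80, and without batch 1 the number lower was 94. Of 262 solute carrier genes, 73 (27.9%) were higher and 105 (40.1%) lower (median -0.22, and 0.22 under total counts). Slc34a2 fell most, and Slc29a4, a monoamine transporter, went from 0 counts to a mean of 9.11 CPM. Of 66 RAB GTPase genes, 16 (24.2%) were higher and 23 (34.8%) lower (median -0.11, and 0.34 under total counts). Rab27a, which drives secretory granules to the membrane, fell from 84.4 to 2.58 CPM (log2 fold change -5.03), and Rab7 of late endosomes was level at 377 CPM on both days. Of 29 lysosomal genes, 9 (31.0%) were higher and 10 (34.5%) lower, near the shares of all genes. Ctsd (2.33) and Lipa (3.19) rose, and Ctsc (-5.42), Npc2 (-3.89), and Npc1 (-2.87) fell. Without batch 2 the number lower was 6, and under total counts 15 were higher and 5 lower.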
